A study of Mus musculus with 9 samples.

Results

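The genes described here are 39 genes of DNA replication and nucleotide supply. They were taken by symbol from a count table of 27179 genes, and all 39 were found and had enough reads to be tested. They cover origin licensing (11 genes), helicase activation (6), polymerases and primase (6), the sliding clamp and its loader (6), single-strand binding and Okazaki fragment maturation (5), nucleotide supply (4) and maintenance methylation (1). Their levels were compared between mandibles of WT mice (n = 5) and of mice with the label FcγRIIB-/- (n = 4), each of them C57BL/6 and 6 months of age. FcγRIIB is the inhibitory receptor for IgG, and mice without it in any cell develop a lupus-like disease. The whole mandible with its teeth was pulverized, so each library mixes bone, bone marrow, teeth, muscle and gum.

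A cell copies its genome once per division. In G1 the origin recognition complex and *Cdc6* and *Cdt1* load the *Mcm2* to *Mcm7* ring on DNA, and in S phase *Cdc45* and the GINS complex turn that ring into the active helicase. Polymerases alpha, delta and epsilon then copy the strands, held by the PCNA ring, while *Fen1* and ligase 1 join the Okazaki fragments and ribonucleotide reductase supplies the deoxynucleotides. Many of these genes are transcribed in bursts around the G1/S transition by E2F factors, and in an adult jaw the blood-forming marrow and the growing incisor hold dividing cells.

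Totals were between 21453880 and 28991631 counts per mouse, 16329 genes were tested, and levels are given in CPM, the counts of a gene relative to the TMM-scaled size of its library. *Fcgr2b*, the targeted gene, did not pass the test in either direction. It had 577, 954, 442, 630 and 529 counts in WT and 757, 562, 628 and 634 counts in the libraries labelled FcγRIIB-/- (log2 fold change 0.21 ± 0.20 SE, adjusted p = 0.442), so the groups are named by their labels and the second group is called the labelled mice. Values are listed in the order of WT replicates 1 to 5 and labelled replicates 1 to 4. The labels number these samples as replicates and do not say how the animals were drawn, so p-values measure the spread between these samples. Adjusted p-values of genes come from edgeR's quasi-likelihood test with Benjamini-Hochberg adjustment over all tested genes. A gene was called at an adjusted p below 0.05.

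The promoter of the called gene with the greatest fall in each class is shown, since E2F factors act through promoters of this gene set. Each window runs from 250 bases before to 50 bases after the RefSeq start (GRCm38.p6), 5′ to 3′ on the strand of the gene. Capitals mark the E2F core letters (TTCCCGC, with the variants TTGGCGC and further TTCGCGC and likewise TTGCCGC) and CCAAT, each on either strand. *Orc1* lies at chr4:108579204-108579503 on the plus strand, *Mcm10* at chr2:5012742-5013041 on the minus strand, *Lig1* at chr7:13278576-13278875 on the plus strand, *Pcna* at chr2:132253131-132253430 on the minus strand, *Rrm2* at chr12:24708004-24708303 on the plus strand and *Uhrf1* at chr17:56303087-56303386 on the plus strand.
Orc1: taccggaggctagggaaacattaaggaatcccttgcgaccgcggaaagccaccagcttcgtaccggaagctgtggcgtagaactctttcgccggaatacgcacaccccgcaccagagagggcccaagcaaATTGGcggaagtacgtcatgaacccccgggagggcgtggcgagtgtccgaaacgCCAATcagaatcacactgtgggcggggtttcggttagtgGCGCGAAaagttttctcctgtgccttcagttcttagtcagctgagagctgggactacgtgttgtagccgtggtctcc
Mcm10: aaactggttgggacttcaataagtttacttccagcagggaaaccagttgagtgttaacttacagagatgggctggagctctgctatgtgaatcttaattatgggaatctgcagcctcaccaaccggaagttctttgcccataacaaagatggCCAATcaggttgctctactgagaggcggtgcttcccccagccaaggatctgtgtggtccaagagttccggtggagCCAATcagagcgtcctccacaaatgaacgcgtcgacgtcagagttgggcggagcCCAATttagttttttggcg
Lig1: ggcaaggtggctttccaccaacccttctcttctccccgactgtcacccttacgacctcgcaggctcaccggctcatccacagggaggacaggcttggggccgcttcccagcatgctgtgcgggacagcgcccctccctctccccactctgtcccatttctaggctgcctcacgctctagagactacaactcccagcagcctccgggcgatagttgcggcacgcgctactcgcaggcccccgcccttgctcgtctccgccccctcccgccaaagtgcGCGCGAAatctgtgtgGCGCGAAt
Pcna: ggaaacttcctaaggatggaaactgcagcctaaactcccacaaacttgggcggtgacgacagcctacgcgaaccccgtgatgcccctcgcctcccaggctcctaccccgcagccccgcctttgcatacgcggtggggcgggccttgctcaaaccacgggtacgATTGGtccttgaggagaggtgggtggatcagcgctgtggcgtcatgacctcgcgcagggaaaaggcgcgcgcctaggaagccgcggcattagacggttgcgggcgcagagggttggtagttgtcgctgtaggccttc
Rrm2: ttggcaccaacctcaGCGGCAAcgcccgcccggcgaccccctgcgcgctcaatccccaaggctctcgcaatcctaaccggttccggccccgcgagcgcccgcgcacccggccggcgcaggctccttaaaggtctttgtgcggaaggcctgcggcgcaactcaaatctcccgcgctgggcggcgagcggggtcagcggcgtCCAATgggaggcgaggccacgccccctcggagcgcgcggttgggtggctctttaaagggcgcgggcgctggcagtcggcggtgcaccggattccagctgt
Uhrf1: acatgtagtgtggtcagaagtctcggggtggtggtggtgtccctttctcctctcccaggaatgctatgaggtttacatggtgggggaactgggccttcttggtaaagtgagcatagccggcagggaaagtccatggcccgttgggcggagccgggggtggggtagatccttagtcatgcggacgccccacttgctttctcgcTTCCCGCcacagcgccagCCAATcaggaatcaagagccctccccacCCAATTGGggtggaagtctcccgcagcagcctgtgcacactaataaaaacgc

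The E2F letters stand 27 bases before the start in *Orc1*, 48 before it in *Uhrf1*, 235 before it in *Rrm2*, and 26 and 42 bases after it in *Lig1*. The windows of *Mcm10* and *Pcna* hold CCAAT (3 and 1 matches) and no E2F letters, which says only that these letters are absent from these windows. In *Uhrf1* a pair of CCAAT matches on opposite strands overlap in the run of capitals nearest the start. *Lig1* has 3 RefSeq starts and *Uhrf1* has 2, and the window with the most GENCODE transcript starts within 100 bases was used. *Pcna* has no GENCODE start within 100 bases of its RefSeq start. *Pole* is named without a window.

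Of the 39 genes, 31 had a promoter window, and 21 of these (67.7%) held the E2F letters, against 17.9% of the 12436 tested genes with a window and 9.57% of all 32851 windows. *Mcm6*, a subunit of the helicase ring, had the highest number, with 5 matches. The letters were in 13 of 20 windows of members called lower (65%) and in 8 of 11 windows of members not called lower (72.7%). The members not called lower are not a set without falls, since 36 of the 39 had a log2 fold change below 0. Whether the shares differ was not tested. CCAAT was in 21 of 31 member windows (67.7%), against 42.1% of tested genes with a window and 37.4% of all windows. A match of letters is a description of the sequence and was not tested as a binding site.

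In the labelled mice 23 of the 39 genes were lower (59%), against 19.3% of all tested genes. Only *Gins4* was higher, against 14% of all tested genes, and 15 were not called. The median log2 fold change of the 39 was -0.43, a level of 74% of WT, while the median of all tested genes was 0.01. In each of the 23 genes called lower, every WT mouse was above every labelled mouse, a pattern that 17.5% of all tested genes showed. *Gins4* was the 1 gene with every WT mouse below every labelled mouse, which 12.1% of all tested genes showed, and the 15 uncalled genes overlapped between the groups. A log2 fold change of -1 or below was seen in 5 called genes, *Orc1*, *Cdc6*, *Rrm2*, *Mcm2* and *Uhrf1*, against 6.55% of all tested genes. The median over the 23 was -0.67, the same as over all 3144 genes called lower. Of the 23, 20 were called lower in every fit that left out 1 mouse.

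**Figure D1:**
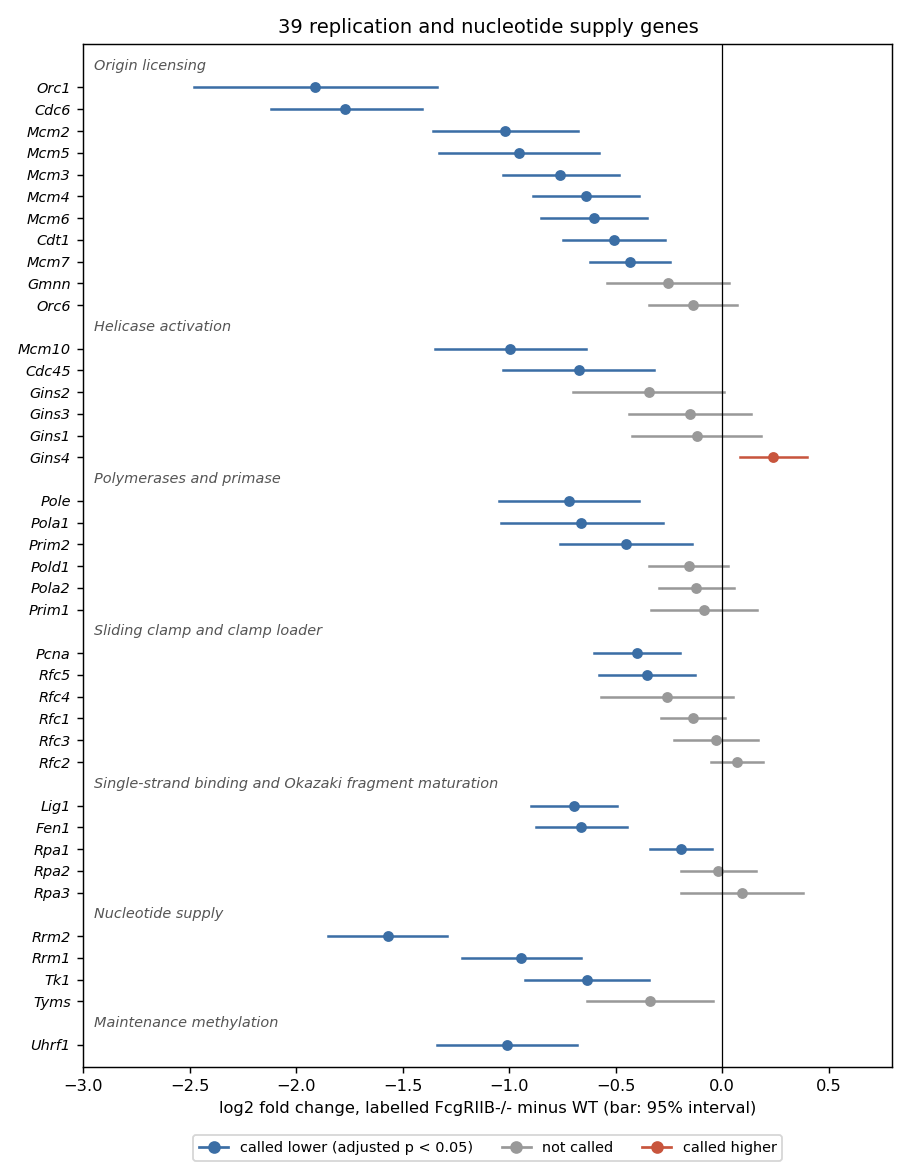
Log2 fold change (labelled FcγRIIB-/- minus WT, x axis) of the 39 genes, grouped by role, with bars for the 95% interval. *Orc1*, *Cdc6* and *Rrm2* lie farthest to the left, *Rfc2*, *Rfc3*, *Rpa2* and *Rpa3* lie nearest 0, and *Gins4* is the 1 gene called higher.

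Markers of some blood-cell types were also lower in labelled mice. All 14 measured erythroid markers and all 15 markers of neutrophils and their precursors were called lower. The erythroid markers summed to between 2350 and 2690 CPM in WT and between 371 and 782 CPM in labelled mice, and the neutrophil markers to between 1480 and 4240 CPM and between 191 and 557 CPM. *Klf1*, a transcription factor that defines the erythroid lineage, was at 14 ± 1.91 CPM (SD, n = 5) in WT and 0.817 ± 0.726 CPM (SD, n = 4) in labelled mice, and *Elane*, the elastase of neutrophil precursors, at 35.6 ± 14.6 CPM (SD, n = 5) in WT and 2.76 ± 3.17 CPM (SD, n = 4) in labelled mice. The defining markers *Rhag*, *Ms4a1* and *Flg* were at 0 counts in at least 1 library. Of the markers of B cells and their precursors 11 of 12 were lower (sums of 49.9 to 114 and 14.2 to 34.4 CPM), of megakaryocytes 8 of 8 (269 to 355 and 79.2 to 135 CPM), of osteoclasts 7 of 8 (855 to 1220 and 275 to 520 CPM) and of oral epithelium 7 of 12, with 1 higher (6160 to 22300 and 4830 to 6230 CPM). *Mmp9* is counted in both the neutrophil and the osteoclast list, at a mean of 265 CPM in WT and 73.8 CPM in labelled mice. Of the T cell markers 1 of 9 was called lower, of the macrophage markers 4 of 8, of the hematopoietic progenitor markers 3 of 7, of the osteoblast and osteocyte markers 5 of 11 and of the chondrocyte markers 1 of 6. All 9 T cell markers had a log2 fold change below 0 (median -1.09), so few calls there do not mean unchanged levels. Their sums overlapped, at 37.9 to 97.2 CPM in WT, highest in replicate 2, and 35.9 to 41.1 CPM in labelled mice. Markers of skeletal muscle (7 of 11) and of odontoblasts and ameloblasts (5 of 8) were higher. In libraries of a whole jaw, fewer cells of a type and less RNA per cell cannot be told apart, and the part of these shifts in the results on replication genes was not tested.

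Origin licensing held the genes with the deepest falls, *Orc1* and *Cdc6*. Of its 11 genes, 9 were lower and 2 were not called, with a median log2 fold change of -0.64. *Orc1*, the ATPase subunit of the origin recognition complex, was at 3.55, 3.57, 2.7, 3.89 and 4.61 CPM in WT and 0.561, 1.34, 1.06 and 0.963 CPM in labelled mice. No labelled mouse came near the lowest WT mouse, and the mean was 26.8% of WT (log2 fold change -1.91 ± 0.26 SE, adjusted p = 0.000785). With between 16 and 118 counts per library, *Orc1* was the least covered of the 39 genes. Its span also overlaps that of *Prpf38a* by 3632 bases, and whether reads there were assigned by strand is not given in the sources used here. *Orc6*, the smallest subunit of the same complex, was at 20, 19, 19.9, 19.9 and 18.4 CPM in WT and 16.7, 16.6, 21.4 and 16.1 CPM in labelled mice. Labelled replicate 3 lay above every WT mouse and the other 3 labelled mice lay below them, and *Orc6* was not called (log2 fold change -0.14 ± 0.094 SE, adjusted p = 0.286, 95% interval -0.34 to 0.07). Without that mouse it was called lower, at a log2 fold change of -0.24 and an adjusted p of 0.0307.

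*Cdc6*, the ATPase that helps load the helicase ring, was at 11.7, 13.1, 8.44, 13.2 and 13.1 CPM in WT and 3.33, 3.88, 3.05 and 3.75 CPM in labelled mice. WT replicate 3 stood apart at the low end, and even that mouse was well above the labelled mice (log2 fold change -1.77 ± 0.16 SE, adjusted p = 0.000104). Its partner *Cdt1*, which brings the ring to origins, was at 15.3, 16.1, 12.9, 13.8 and 15.6 CPM in WT and 10.1, 9.2, 10.1 and 12.2 CPM in labelled mice. The gap between the groups was narrow, from 12.2 to 12.9 CPM, and *Cdt1* was called lower (log2 fold change -0.51 ± 0.11 SE, adjusted p = 0.00614). *Gmnn*, the geminin gene, encodes the inhibitor that holds *Cdt1* back in S and G2. It was at 12.6, 10.7, 8.83, 10.9 and 12.1 CPM in WT and 9.57, 8.87, 10.7 and 7.91 CPM in labelled mice, with overlapping groups and no call (log2 fold change -0.25 ± 0.13 SE, adjusted p = 0.156, 95% interval -0.54 to 0.03).

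All 6 subunits of the helicase ring were lower. *Mcm2* fell most and was at 33.3, 34.9, 25.6, 31.4 and 42 CPM in WT and 16.5, 19.9, 17 and 12.6 CPM in labelled mice (log2 fold change -1.02 ± 0.16 SE, adjusted p = 0.0013). *Mcm5* was at 30.3, 33.4, 28.5, 34.2 and 47.4 CPM in WT and 18.2, 22, 18.4 and 13.2 CPM in labelled mice, with WT replicate 5 high and labelled replicate 4 low (log2 fold change -0.95 ± 0.17 SE, adjusted p = 0.00272). The same 2 mice marked the ends in *Mcm3*, at 31.4, 34.7, 26.5, 29.5 and 37 CPM in WT and 18.7, 21.7, 19.8 and 15.1 CPM in labelled mice (log2 fold change -0.76 ± 0.12 SE, adjusted p = 0.00178). *Mcm4* was at 39.2, 39.1, 35.4, 37 and 44.5 CPM in WT and 22.8, 28.2, 28.9 and 20.3 CPM in labelled mice, again without overlap (log2 fold change -0.64 ± 0.11 SE, adjusted p = 0.00264). *Mcm6* was at 57.7, 57.3, 49.9, 63 and 64.2 CPM in WT and 37.3, 40.5, 45.4 and 30.8 CPM in labelled mice (log2 fold change -0.6 ± 0.11 SE, adjusted p = 0.0033). *Mcm7* had the smallest fall of the ring, and its labelled mice lay close together, at 50.5, 49.8, 43.8, 49.6 and 59.9 CPM in WT and 35.7, 38.9, 37.9 and 37.6 CPM in labelled mice (log2 fold change -0.43 ± 0.085 SE, adjusted p = 0.00401). Per kilobase of exon, the 6 subunits lay between 9.91 and 17.1 CPM per kb in WT and between 4.89 and 12.7 CPM per kb in labelled mice, with *Mcm2* lowest and *Mcm7* highest in both groups. The licensing factors *Orc1* and *Cdc6* were scarcer, at 1.22 and 0.325 CPM per kb for *Orc1* and 2.49 and 0.732 CPM per kb for *Cdc6* in WT and labelled mice.

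**Figure D2:**
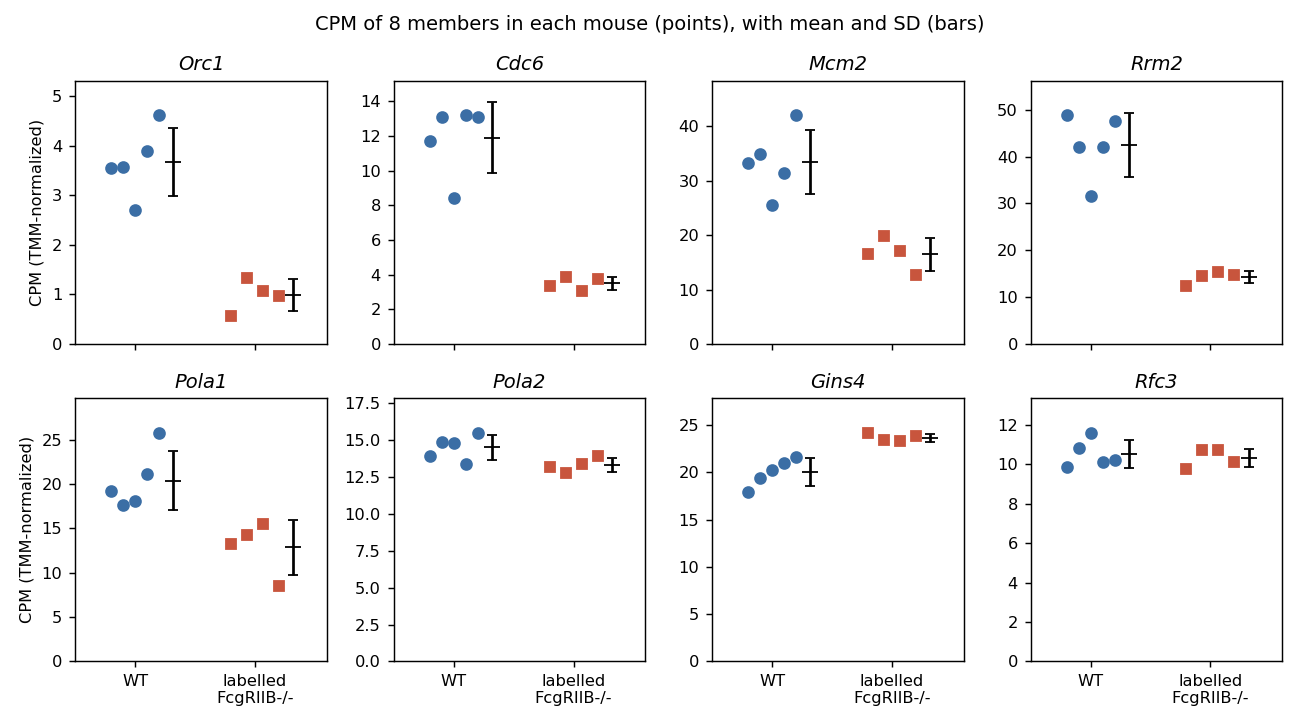
CPM (y axis, from 0) of 8 genes in each mouse, with WT as circles, labelled FcγRIIB-/- as squares, and the group mean with SD as bars. The labelled mice lie below every WT mouse in *Orc1*, *Cdc6*, *Mcm2*, *Rrm2* and *Pola1*, above every WT mouse in *Gins4*, and overlap with WT in *Pola2* and *Rfc3*.

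Of the genes that turn the loaded ring into a moving helicase 2 of 6 were lower (33.3%), 1 was higher and 3 were not called. Among all tested genes 19.3% were lower and 14% were higher. The log2 fold change was below 0 in 5 of the 6, and whether these falls differ was not tested. *Mcm10*, which helps start unwinding, was at 7.79, 7.34, 6.48, 8.22 and 8.74 CPM in WT and 3.5, 4.71, 4.32 and 2.94 CPM in labelled mice, with no overlap (log2 fold change -0.99 ± 0.16 SE, adjusted p = 0.00177). *Cdc45*, a subunit of the active helicase, was at 6.7, 7.82, 6.75, 8.52 and 8.94 CPM in WT and 5.96, 4.21, 5.3 and 3.9 CPM in labelled mice. Its labelled mice spread from 3.90 to 5.96 CPM and stayed below WT (log2 fold change -0.67 ± 0.16 SE, adjusted p = 0.00981).

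The 4 GINS genes encode a complex whose subunits act in equal number. *Gins4* was at 17.9, 19.4, 20.3, 21 and 21.6 CPM in WT and 24.2, 23.4, 23.3 and 23.8 CPM in labelled mice. The labelled mice lay close together, all above WT, and *Gins4* was the only member called higher (log2 fold change 0.24 ± 0.072 SE, adjusted p = 0.0261). The call ended without labelled replicate 1 (adjusted p = 0.061) and when libraries were scaled by their totals alone (adjusted p = 0.114). *Gins1* was at 4.31, 4.41, 4.9, 4.63 and 5.15 CPM in WT and 3.96, 4.3, 5.17 and 3.8 CPM in labelled mice (log2 fold change -0.12 ± 0.14 SE, adjusted p = 0.532, 95% interval -0.42 to 0.18). *Gins3* was at 7.72, 7.7, 8.4, 7.16 and 7.38 CPM in WT and 7.64, 6.01, 8.18 and 5.78 CPM in labelled mice (log2 fold change -0.15 ± 0.13 SE, adjusted p = 0.399, 95% interval -0.44 to 0.14). In both, labelled replicate 3 was the highest labelled mouse, within or just above the WT range. *Gins2* was at 6.41, 5.1, 4.43, 5.95 and 6.36 CPM in WT and 4.55, 4.99, 3.52 and 4.76 CPM in labelled mice, with lower values in labelled mice on average and overlapping groups (log2 fold change -0.34 ± 0.16 SE, adjusted p = 0.123, 95% interval -0.70 to 0.01).

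Of the polymerase and primase genes 3 of 6 were lower. *Pole*, the catalytic subunit of polymerase epsilon on the leading strand, was at 11.4, 11.8, 9.14, 10.2 and 13.7 CPM in WT and 6.34, 8.46, 6.61 and 5.93 CPM in labelled mice, with a gap between the groups (log2 fold change -0.72 ± 0.15 SE, adjusted p = 0.00504). *Pold1*, the catalytic subunit of polymerase delta, was at 22.6, 22.2, 21.3, 22.1 and 26.3 CPM in WT and 19.3, 20.8, 19.6 and 22.6 CPM in labelled mice. Here labelled replicate 4 was as high as most WT mice, WT replicate 5 stood apart at the high end, and *Pold1* was not called (log2 fold change -0.16 ± 0.084 SE, adjusted p = 0.173, 95% interval -0.34 to 0.03). It was called lower when libraries were scaled by their totals alone (log2 fold change -0.23, adjusted p = 0.0353).

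The primase complex of polymerase alpha lays down the first stretch of each strand, and its 4 genes differed in their calls. *Pola1*, the catalytic subunit, was at 19.2, 17.7, 18.1, 21.1 and 25.8 CPM in WT and 13.2, 14.3, 15.5 and 8.46 CPM in labelled mice. Labelled replicate 4 was far below the other labelled mice, and the groups did not overlap (log2 fold change -0.66 ± 0.17 SE, adjusted p = 0.0155). *Pola2*, its regulatory subunit, was at 13.9, 14.9, 14.8, 13.4 and 15.5 CPM in WT and 13.2, 12.8, 13.4 and 13.9 CPM in labelled mice and was not called (log2 fold change -0.12 ± 0.079 SE, adjusted p = 0.263, 95% interval -0.29 to 0.05). *Prim1*, the catalytic primase subunit, was at 14.9, 13.8, 11.8, 15.1 and 16.6 CPM in WT and 12.5, 13.4, 15.6 and 12.9 CPM in labelled mice, also with overlap (log2 fold change -0.08 ± 0.11 SE, adjusted p = 0.595, 95% interval -0.34 to 0.17). *Prim2*, the large primase subunit, was at 9.67, 8.75, 7.98, 10.9 and 12.2 CPM in WT and 7.6, 7.95, 7.03 and 6.33 CPM in labelled mice and was called lower (log2 fold change -0.45 ± 0.14 SE, adjusted p = 0.0315). The lowest WT mouse and the highest labelled mouse all but met, and with 1 mouse left out the call held in 3 of 9 fits, those without WT replicate 2 or 3 or labelled replicate 2, with adjusted p-values up to 0.0873 in the others.

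The sliding clamp gene fell, and 4 of the 5 genes of its loader were not called. In this class 33.3% of the genes were lower, against 19.3% of all tested genes. *Pcna*, the ring that tethers polymerases to DNA and a common proliferation marker, was at 59.1, 58.8, 56.4, 61.1 and 68.7 CPM in WT and 41, 49.8, 52 and 41.5 CPM in labelled mice. Every labelled mouse was below WT, at a mean of 75.8% of WT (log2 fold change -0.4 ± 0.091 SE, adjusted p = 0.00784). *Pcna* had the highest level per length of the 39 genes, 40.1 and 30.4 CPM per kb in WT and labelled mice. Of the 5 loader subunits only *Rfc5* was called, at 13, 13.9, 11.8, 11.8 and 12.1 CPM in WT and 9.78, 11.3, 9.11 and 8.97 CPM in labelled mice (log2 fold change -0.35 ± 0.1 SE, adjusted p = 0.0227). With 1 mouse left out that call held in 5 of 9 fits, and it ended without WT replicate 1 or 2 or labelled replicate 3 or 4, with adjusted p-values up to 0.0653.

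*Rfc1*, the large loader subunit, was at 56.3, 55.8, 57.3, 60.6 and 63.2 CPM in WT and 54.3, 56.4, 55.3 and 47.4 CPM in labelled mice, with labelled replicate 4 low (log2 fold change -0.14 ± 0.069 SE, adjusted p = 0.151, 95% interval -0.29 to 0.02). *Rfc2* was at 31.4, 33.7, 33.5, 32.7 and 32.6 CPM in WT and 34.6, 33.9, 33.3 and 36 CPM in labelled mice and had the narrowest interval of the 39 (log2 fold change 0.07 ± 0.056 SE, adjusted p = 0.348, 95% interval -0.05 to 0.19). *Rfc3* was at 9.85, 10.8, 11.6, 10.1 and 10.2 CPM in WT and 9.78, 10.7, 10.7 and 10.1 CPM in labelled mice, with the groups on top of each other (log2 fold change -0.03 ± 0.089 SE, adjusted p = 0.821, 95% interval -0.23 to 0.17). *Rfc4* was at 11.8, 9.91, 8.71, 11.2 and 12.9 CPM in WT and 9.64, 7.9, 10.7 and 8.11 CPM in labelled mice, with wider spread (log2 fold change -0.26 ± 0.14 SE, adjusted p = 0.174, 95% interval -0.57 to 0.05). The sign of *Rfc2* turned when libraries were scaled by their totals alone (log2 fold change -0.01) and that of *Rfc3* when WT replicate 3 was left out (0.02).

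The enzymes that finish Okazaki fragments fell, and of the 3 single-strand binding genes 1 was called lower. *Lig1*, the ligase that seals the fragments, was at 36, 35.9, 29.6, 31.5 and 36.7 CPM in WT and 23.4, 18.6, 20.7 and 21.1 CPM in labelled mice, a mean of 61.7% of WT (log2 fold change -0.7 ± 0.092 SE, adjusted p = 0.000711). *Fen1*, the nuclease that trims their flaps, was at 22, 24.9, 19.7, 23.1 and 24 CPM in WT and 13.6, 14.4, 16.4 and 13 CPM in labelled mice (log2 fold change -0.66 ± 0.1 SE, adjusted p = 0.00111). Both had a clear gap between the groups.

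RPA is a complex of 3 subunits. *Rpa1*, the large one, was at 62.5, 60.4, 59.9, 63.7 and 65.7 CPM in WT and 57.7, 52.6, 49.6 and 58.7 CPM in labelled mice and was called lower by a small margin (log2 fold change -0.19 ± 0.065 SE, adjusted p = 0.0436). With 1 mouse left out the call held in 1 of 9 fits, the one without labelled replicate 4, and DESeq2 gave an adjusted p of 0.0507. *Rpa2* was at 23.3, 20.5, 24.9, 24.4 and 20.7 CPM in WT and 23.2, 22, 23.2 and 21.6 CPM in labelled mice (log2 fold change -0.02 ± 0.080 SE, adjusted p = 0.887, 95% interval -0.19 to 0.16). *Rpa3*, the small subunit, was at 11.6, 10.8, 10.4, 11.9 and 11.8 CPM in WT and 11.1, 11.8, 15.5 and 9.78 CPM in labelled mice (log2 fold change 0.09 ± 0.13 SE, adjusted p = 0.608, 95% interval -0.19 to 0.38). Labelled replicate 3 was the highest of all mice in *Rpa3*, and without it the log2 fold change was -0.05.

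Of the 4 genes of nucleotide supply 3 were lower, with the deepest class median of the classes with more than 1 gene, -0.79. *Rrm2*, the small subunit of ribonucleotide reductase made in S phase, was at 48.8, 42, 31.5, 42.1 and 47.5 CPM in WT and 12.4, 14.6, 15.4 and 14.8 CPM in labelled mice. The labelled mice lay between 12.4 and 15.4 CPM, far under the lowest WT mouse at 31.5 CPM, and the mean was 33.7% of WT (log2 fold change -1.57 ± 0.13 SE, adjusted p = 7.7e-05). *Rrm1*, the large subunit, was at 82.2, 81, 69.4, 81.3 and 94.9 CPM in WT and 46.4, 44.7, 47.5 and 31.3 CPM in labelled mice, with labelled replicate 4 far below the other labelled mice (log2 fold change -0.94 ± 0.13 SE, adjusted p = 0.000744). *Tk1*, the thymidine kinase of the cytosol, was at 16.6, 15.7, 12.5, 15.9 and 16.8 CPM in WT and 8.76, 10.9, 8.43 and 11.9 CPM in labelled mice (log2 fold change -0.63 ± 0.13 SE, adjusted p = 0.00533). Its lowest WT mouse, at 12.5 CPM, and its highest labelled mouse, at 11.9 CPM, were close. *Tyms*, which makes thymidylate from deoxyuridylate, was at 14.2, 12.8, 11.1, 13 and 13.9 CPM in WT and 8.83, 11.7, 12.1 and 8.36 CPM in labelled mice. Labelled replicates 2 and 3 lay among WT and the other pair lay below, and *Tyms* was not called (log2 fold change -0.34 ± 0.13 SE, adjusted p = 0.0741, 95% interval -0.64 to -0.04). *Tyms* was called lower without labelled replicate 3 (adjusted p = 0.0438).

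*Uhrf1* guides the maintenance methyltransferase to newly copied DNA. It was at 28.4, 25.1, 20, 23.7 and 31 CPM in WT and 12.2, 15.9, 12.3 and 10.5 CPM in labelled mice, a mean of 49.7% of WT, with no overlap (log2 fold change -1.01 ± 0.15 SE, adjusted p = 0.00112).

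Whether partner genes fell by unequal amounts was tested with 6 ratios inside each library, as a difference of log2 CPM, so that the scaling of the library cancels except for the prior count. The smallest p that all divisions of 9 mice into 5 and 4 allow is 0.00794, and p-values were adjusted over the 6. *Rrm2b* encodes a small reductase subunit used outside S phase, and was at 20.7, 21.5, 18.5, 22.9 and 20.3 CPM in WT and 19.3, 17.9, 17.1 and 16.9 CPM in labelled mice (log2 fold change -0.22 ± 0.082 SE, adjusted p = 0.0569). The log2 ratio of *Rrm2* to *Rrm2b* was 1.23, 0.966, 0.764, 0.874 and 1.23 in WT and -0.628, -0.299, -0.146 and -0.189 in labelled mice. It was above 0 in every WT mouse and below 0 in every labelled mouse (difference of -1.33, 39.8% of the WT ratio, two-sided exact permutation p = 0.00794, adjusted p = 0.0238). Against *Rrm1*, the log2 ratio of *Rrm2* was -0.752, -0.946, -1.14, -0.947 and -0.997 in WT and -1.89, -1.61, -1.62 and -1.08 in labelled mice. Labelled replicate 4, in which *Rrm1* was low, lay within the WT range, and the ratio was lower in labelled mice (difference of -0.594, 66.2% of the WT ratio, two-sided exact permutation p = 0.0159, adjusted p = 0.0238).

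*Tk2* is the mitochondrial thymidine kinase, and was at 23.7, 26.9, 24.9, 23.1 and 21.5 CPM in WT and 22.6, 22.3, 21 and 26.3 CPM in labelled mice (log2 fold change -0.06 ± 0.089 SE, adjusted p = 0.636). The log2 ratio of *Tk1* to *Tk2* was -0.512, -0.776, -0.993, -0.537 and -0.354 in WT and -1.36, -1.03, -1.31 and -1.14 in labelled mice. It was lower in labelled mice without overlap (difference of -0.574, 67.2% of the WT ratio, two-sided exact permutation p = 0.0159, adjusted p = 0.0238). *Mcm10* was set against the mean log2 CPM of *Mcm2* to *Mcm7*, and this ratio was -2.32, -2.46, -2.37, -2.24 and -2.45 in WT and -2.72, -2.52, -2.57 and -2.71 in labelled mice. The ratio was lower in labelled mice without overlap, so *Mcm10* fell by more than the mean of the 6 subunits, though not by more than *Mcm2* alone (difference of -0.262, 83.4% of the WT ratio, two-sided exact permutation p = 0.00794, adjusted p = 0.0238).

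For *Cdt1* to its inhibitor *Gmnn* the log2 ratio was 0.28, 0.583, 0.54, 0.333 and 0.357 in WT and 0.0765, 0.0512, -0.0818 and 0.616 in labelled mice, with labelled replicate 4 above every WT mouse (difference of -0.253, 83.9% of the WT ratio, two-sided exact permutation p = 0.175, adjusted p = 0.21). A difference was not detected with these 9 mice, and without labelled replicate 4 it was -0.40 with an adjusted p of 0.0268. For *Rfc1* to the mean log2 CPM of the other 4 loader subunits it was 1.93, 1.89, 2.01, 2.06 and 2.06 in WT and 2.02, 2.07, 2.01 and 1.88 in labelled mice. The groups lay on each other (difference of 0.00478, 100% of the WT ratio, two-sided exact permutation p = 0.897, adjusted p = 0.897). With 8 mice the smallest p is 0.0286 (4 against 4) or 0.0179 (5 against 3), and the 4 ratios that passed had adjusted p-values up to 0.0857 when 1 mouse was left out.

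**Figure D3:**
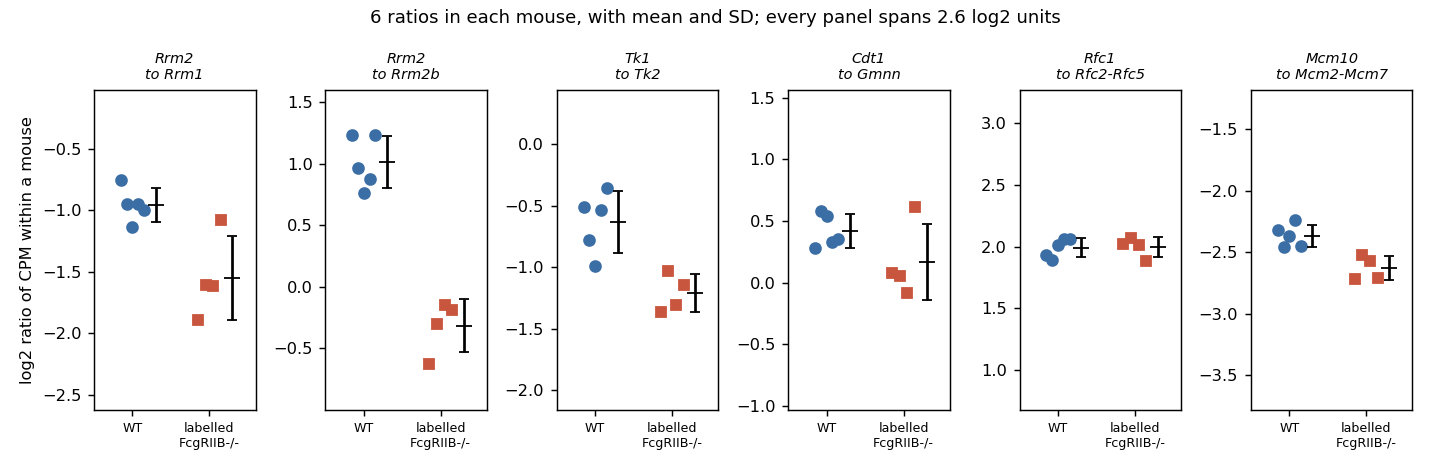
Log2 ratio of CPM within each mouse (y axis, every panel spanning the same log2 range) for 6 gene pairs or groups, with WT as circles, labelled FcγRIIB-/- as squares, and the mean with SD as bars. The groups are apart for *Rrm2* to *Rrm2b*, *Tk1* to *Tk2* and *Mcm10* to Mcm2-Mcm7, and overlap in the other panels.

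Some mice were high or low across many of the 39 genes. WT replicate 5 was the highest WT mouse in 25 of 39 genes and WT replicate 3 the lowest in 27. Among the labelled mice, replicate 4 was the lowest in 22 genes, and replicates 3 and 2 were the highest in 17 and 13. Summed over the 39 genes, the level was 975, 965, 865, 973 and 1090 CPM in WT and 688, 724, 733 and 639 CPM in labelled mice. Neutrophil markers summed to 2070, 1880, 1480, 2210 and 4240 CPM in WT, highest and lowest in the same mice, and to 557, 240, 479 and 191 CPM in labelled mice. There replicate 4 was lowest in both, but replicate 1 was highest in neutrophil markers and second lowest in the 39 genes. Erythroid markers summed to 419, 371, 491 and 782 CPM in labelled mice and were highest in replicate 4. The part of either cell type in the order of the mice was not tested. The median coefficient of variation of the 39 genes was 9.7% in WT and 13.9% in labelled mice, near the 10.6% and 12.6% of all tested genes.

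Of 138 tested genes in 8 other lists, of replication, nucleotide supply, cell-cycle control and mitosis, 65 were lower (47.1%) and 6 were higher. Over all tested genes 19.3% were lower and 14% higher. The share lower was smallest in S-phase nucleotide synthesis (11.8%) and in nucleotide supply outside S phase (16.7%). It was largest in mitotic genes (92%), which hold 23 of the 65. These lists hold no member of the 39. Among 15 further licensing and origin firing genes 7 were lower and 8 were not called (median log2 fold change -0.21). The count dropped to 2 or 3 when WT replicate 1, 2, 4 or 5 or labelled replicate 1 or 4 was left out. *Ticrr*, which brings *Cdc45* to origins, fell most, at 5.22 ± 1.08 CPM (SD, n = 5) in WT and 2.62 ± 0.425 CPM (SD, n = 4) in labelled mice (log2 fold change -0.99 ± 0.19 SE, adjusted p = 0.00335). *Orc4*, another origin recognition subunit, was at the other end, at 36.6 ± 0.808 CPM (SD, n = 5) in WT and 42.6 ± 6.25 CPM (SD, n = 4) in labelled mice (log2 fold change 0.22 ± 0.090 SE, adjusted p = 0.0835).

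Among 22 further fork and lagging strand genes 7 were lower and 2 were higher (median -0.20). *Clspn*, the claspin adaptor of the fork, fell most, at 12.1 ± 2.1 CPM (SD, n = 5) in WT and 4.91 ± 0.345 CPM (SD, n = 4) in labelled mice (log2 fold change -1.3 ± 0.15 SE, adjusted p = 0.000347). *Top1*, the topoisomerase that relieves twist ahead of the fork and during transcription, was higher, at 140 ± 7.56 CPM (SD, n = 5) in WT and 169 ± 18.4 CPM (SD, n = 4) in labelled mice (log2 fold change 0.27 ± 0.082 SE, adjusted p = 0.0284). *Rnaseh2a*, the catalytic subunit of ribonuclease H2, was also higher, at 18 ± 0.713 CPM (SD, n = 5) in WT and 20.9 ± 0.658 CPM (SD, n = 4) in labelled mice (log2 fold change 0.22 ± 0.066 SE, adjusted p = 0.0285). Neither was called higher when libraries were scaled by their totals alone, and the number of genes called higher was 1 without the low-count filter and when any 1 labelled mouse was left out.

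Of 10 chromatin replication genes 6 were lower and 4 were not called (median -0.34). *Asf1b*, a histone chaperone of dividing cells, fell most, at 9.28 ± 1.95 CPM (SD, n = 5) in WT and 3.51 ± 0.403 CPM (SD, n = 4) in labelled mice (log2 fold change -1.4 ± 0.18 SE, adjusted p = 0.000543), and *Nasp*, another histone chaperone, was at 45.4 ± 1.84 CPM (SD, n = 5) in WT and 49.5 ± 8.48 CPM (SD, n = 4) in labelled mice (log2 fold change 0.12 ± 0.1 SE, adjusted p = 0.369). Of 15 genes of the replication stress response 6 were lower and 9 were not called (median -0.12). *Fancd2*, of the Fanconi anemia pathway, fell most, at 6.3 ± 1.11 CPM (SD, n = 5) in WT and 2.25 ± 0.519 CPM (SD, n = 4) in labelled mice (log2 fold change -1.48 ± 0.19 SE, adjusted p = 0.000674), and *Rad1*, a subunit of the checkpoint clamp, was at 10.4 ± 1.3 CPM (SD, n = 5) in WT and 11.1 ± 1.69 CPM (SD, n = 4) in labelled mice (log2 fold change 0.1 ± 0.13 SE, adjusted p = 0.59).

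Most other genes of S-phase nucleotide synthesis were not called. Of 17 such genes 2 were lower and 2 higher, and the median was 0.01. The balance depended on scaling, with 1 lower and 4 higher under RLE and 2 lower and 1 higher when libraries were scaled by their totals alone. Leaving out 1 mouse gave 1 lower in 7 of 9 fits (all but those without WT replicate 3 or labelled replicate 3), and 1 higher without labelled replicate 2 or 3. *Dck*, the deoxycytidine kinase of the salvage pathway, was lower, at 29.7 ± 3.56 CPM (SD, n = 5) in WT and 16.7 ± 2.11 CPM (SD, n = 4) in labelled mice (log2 fold change -0.83 ± 0.11 SE, adjusted p = 0.000796). *Umps*, which makes uridylate, was lower too, at 29.8 ± 2.4 CPM (SD, n = 5) in WT and 24.7 ± 2.31 CPM (SD, n = 4) in labelled mice (log2 fold change -0.27 ± 0.087 SE, adjusted p = 0.0362). *Nme1*, a nucleoside diphosphate kinase, was higher, at 79.7 ± 9.78 CPM (SD, n = 5) in WT and 120 ± 15.9 CPM (SD, n = 4) in labelled mice (log2 fold change 0.59 ± 0.11 SE, adjusted p = 0.00309), as was *Impdh2*, which starts guanylate synthesis, at 40.7 ± 2.54 CPM (SD, n = 5) in WT and 47.7 ± 2.39 CPM (SD, n = 4) in labelled mice (log2 fold change 0.23 ± 0.065 SE, adjusted p = 0.0218). Of 6 genes that supply or remove nucleotides outside S phase, 1 was lower and 1 was higher (median 0.04). *Samhd1*, which degrades deoxynucleotides, was lower, at 89 ± 11.1 CPM (SD, n = 5) in WT and 61.9 ± 2.08 CPM (SD, n = 4) in labelled mice (log2 fold change -0.52 ± 0.090 SE, adjusted p = 0.00224), and *Nt5m*, a mitochondrial nucleotidase, was higher, at 12.7 ± 0.665 CPM (SD, n = 5) in WT and 15.2 ± 1.16 CPM (SD, n = 4) in labelled mice (log2 fold change 0.26 ± 0.085 SE, adjusted p = 0.0373). The *Nt5m* call ended when libraries were scaled by their totals alone, without the low-count filter, and when WT replicate 2, 3 or 4 or labelled replicate 1, 2 or 4 was left out.

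Of 28 E2F and G1/S regulators 13 were lower and 1 was higher (median -0.26). *E2f2* fell most, at 47.2 ± 7.57 CPM (SD, n = 5) in WT and 9.79 ± 1.86 CPM (SD, n = 4) in labelled mice (log2 fold change -2.27 ± 0.15 SE, adjusted p = 4.5e-05). *Cdkn1a*, the inhibitor p21 of cyclin-dependent kinases, was the 1 called higher, at 194 ± 10.2 CPM (SD, n = 5) in WT and 285 ± 17.5 CPM (SD, n = 4) in labelled mice (log2 fold change 0.56 ± 0.071 SE, adjusted p = 0.000615). Of 25 mitotic genes 23 were lower, with a median of -0.85, and whether that differs from the 39 replication genes was not tested. *Mki67*, the marker Ki-67, fell most, at 209 ± 42.5 CPM (SD, n = 5) in WT and 65.9 ± 9.73 CPM (SD, n = 4) in labelled mice (log2 fold change -1.66 ± 0.16 SE, adjusted p = 0.00014). The 2 mitotic genes not called were *Cdc20*, the activator of the anaphase-promoting complex (log2 fold change -0.28 ± 0.17 SE, adjusted p = 0.232), and *Ttk*, a spindle checkpoint kinase (log2 fold change -0.4 ± 0.22 SE, adjusted p = 0.179).

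**Figure D4:**
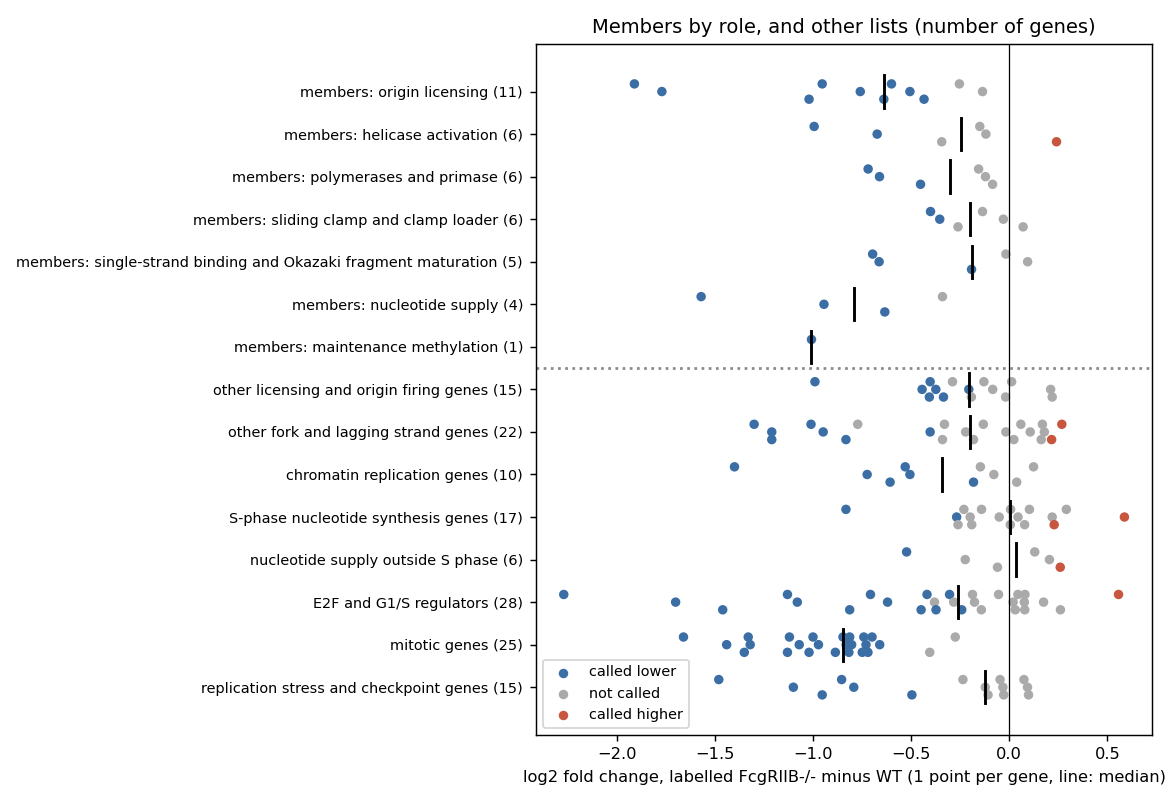
Log2 fold change (labelled FcγRIIB-/- minus WT, x axis) of each gene in the 7 member classes (above the dotted line) and 8 other lists (under it), 1 point per gene, with a bar for the list median and the number of genes in brackets. Mitotic genes and the licensing and nucleotide supply members lie to the left, and the nucleotide synthesis lists are centred on 0.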

How the data were processed

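Poly(A) RNA from whole mandibles of 5 WT mice and 4 mice labelled FcγRIIB-/- was made into strand-marking libraries and read as 75 bp single ends. Per the methods and labels, Trim Galore trimmed the reads, HISAT 02.1.0 aligned them to mm10 and featureCounts assigned them to genes, and the authors deposited the raw counts without scaling. The annotation, strand setting and handling of reads with several matches are not given in the sources used here, and 9 of the 39 genes overlap the span of another gene of the table. A further 1 column of per-sample values matched no sample and was not used. Rows with no symbol (1030, with 0.0971% of counts) kept their gene identifiers and stayed in.

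Counts were filtered with edgeR 4.0.16 (filterByExpr, minimum count 10), scaled with TMM and compared with its quasi-likelihood test without covariates, in R 4.3.3, with Benjamini-Hochberg adjustment at 0.05 and no fold limit. Standard errors were obtained by dividing the size of the log2 fold change by the root of the F statistic. Log2 CPM for ratios used a prior count of 2. Ratios were tested by two-sided exact permutation. Scripts were tested on simulated data. CPM per kb used exon lengths of a GENCODE annotation that need not be the authors'. Totals of 21453880 to 28991631 counts make counting error small except in genes of few CPM. Within a group, 0 pairs of libraries were near-identical in their counts.

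All 39 genes are given. Named from the other lists are the genes with the lowest and highest log2 fold change and those called higher where 5 or fewer. *Umps*, *Ttk* and the named markers were added after their values were seen. The 39 genes and the lists were chosen with earlier results of these data known. Alternatives covered scaling, the low-count filter, DESeq2 1.42.0, a fold limit of 0.5, a replicate block and leaving out each mouse. Protein sequences were not used here.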

Additional observations from a re-analysis of the deposited data

Results flagged for a closer look

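Each of the 39 genes was checked in each group for a mouse set apart from the rest by Dixon's ratio of gap to range, 78 groups in all. In 5 of them a mouse passed the 95% limit, where chance sets 1 in 20 groups apart. Labelled replicate 3 was the highest of its group in *Orc6*, at 21.4 CPM. WT replicate 3 was the lowest of its group in *Cdc6*, at 8.44 CPM, and in *Tk1*, at 12.5 CPM. WT replicate 5 was the highest of its group in *Pold1*, at 26.3 CPM. Labelled replicate 4 was the lowest of its group in *Rrm1*, at 31.3 CPM.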

How the results depend on the processing

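The number of the 39 genes called lower was 23 in the reported comparison, 22 with DESeq2, with RLE scaling, without the low-count filter and with at least 10 counts in every library, 25 with scaling by library totals, 18 with a fold limit of 0.5 and 20 to 22 when 1 mouse was left out. Scaling by totals moved the median of all genes from 0.01 to -0.07, left 0 members and 1309 genes higher (74.3% of calls lower, against 57.9%) and turned *Rfc2* to -0.006. The fold limit left 1971 genes lower, 874 genes higher and 0 members higher. The median log2 fold change of the 39 was -0.434 in the reported comparison, -0.508 with scaling by totals and -0.366 with a replicate block. When 1 mouse was left out, this median ran from -0.47 (without WT replicate 3) to -0.344 (without WT replicate 5). Without 1 mouse, 0 to 1 members were higher, and the sign turned in *Rpa2* (-0.034 to 0.031), *Rfc3* (-0.046 to 0.021) and *Rpa3* (-0.052 to 0.181). Over the same fits the ratios were -0.752 to -0.480 for *Rrm2* to *Rrm1*, -1.391 to -1.224 for *Rrm2* to *Rrm2b*, -0.664 to -0.504 for *Tk1* to *Tk2*, -0.299 to -0.231 for *Mcm10* to Mcm2-Mcm7, -0.404 to -0.171 for *Cdt1* to *Gmnn* and -0.020 to 0.041 for *Rfc1* to Rfc2-Rfc5. These fits hold fewer mice and, for the ratios only, a higher smallest p. Without WT replicate 3 or labelled replicate 4 the 4 ratios still passed in the exact permutation test (adjusted p up to 0.0429). The cause of the lost calls was not tested. Deviations from the group mean correlated little between mice that share a replicate number (r of 0.0969, 0.0276, -0.114 and -0.0739). With so few mice these values cannot decide whether the numbers pair them, and the labels do not say. WT replicate 5 has no labelled mouse with its number, so with a replicate block that mouse does not enter the comparison. In that fit 19 members were lower and 0 higher, and over all genes 2410 were lower and 1594 higher. The calls of *Cdc45* (adjusted p = 0.0546), *Gins4* (0.0615), *Pola1* (0.0547), *Prim2* (0.118) and *Rpa1* (0.0902) ended. The parts of the block and of the lost mouse in this were not tested. The precision is limited by 5 and 4 mice and, most of all in *Orc1*, by few reads. Counts per library were also low in other members, such as *Mcm10* (58 to 224) and *Gins1* (75 to 132).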
